A study of Mus musculus with 17 samples.

Results

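The nuclear-encoded subunits of the mitochondrial respiratory chain and ATP synthase were followed in small-intestinal epithelium of mouse pups. A gene belonged to the set when its symbol began as those of complex I (Nduf with a, b, c, s or v and a number), complex II (Sdha to Sdhd), complex III (Uqcr), complex IV (Cox4i, Cox5, Cox6, Cox7, Cox8) or complex V (Atp5). Of 53278 symbols in the table, 89 matched, 6 with pseudogene symbols were left out, and 77 of the remaining 83 reached 1 TPM, an abundance corrected for transcript length and library total, in at least 2 of 17 libraries. By symbol, 36 belonged to complex I, 4 to complex II, 8 to complex III, 13 to complex IV and 16 to complex V. The 6 below the filter were Cox4i2, Cox6a2, Cox7b2, Cox8b, Cox8c and Ndufa4l2. Ndufa4 carries a complex I symbol but is now placed in complex IV, Cox7a2l is a factor of supercomplexes, and Atp5s is a coupling factor of complex V.

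All pups were Igha -/+, carrying 1 null and 1 working copy of the IgA heavy chain gene, on the C57BL/6 strain. They were nursed either by a C57BL/6 dam (B6), which gives IgA in milk, or by an IgA -/- dam (IgA-null), and EpCAM+ CD45- Ter119- cells were sorted on day of life 14, 24 or 42. Each of the 6 groups of dam and day had 3 libraries, except the B6 group at day 24, which had 2. The comparison addressed the part that maternal IgA plays in the developing intestine. Litters and individual dams are not told apart in the labels, so p-values measure only the spread between these samples. The library names hold strings that read as dates, though the labels do not say of what, and these differ between the dams at days 14 and 24 and between day 14 and day 24 under either dam, so the date cannot be told apart from dam or age there. Day 42 shares a date between both dams and with IgA-null day 24, and B6 day 42 differs in date from B6 days 14 and 24. The names of all B6 libraries also begin with M and those of all IgA-null libraries with F, a prefix that the labels do not explain, so whatever it marks cannot be told apart from dam at any age. The Y-linked gene Ddx3y stood between 2.46 and 9.50 TPM and Xist at 0.127 TPM or less in all 17 libraries, so these genes do not split with the prefix.

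The respiratory chain passes electrons from NADH (complex I) or succinate (complex II) through ubiquinone to complex III, then through cytochrome c to oxygen at complex IV, and complexes I, III and IV pump protons that drive ATP synthase (complex V). Most subunits are encoded in the nucleus, while a few core subunits of complexes I, III, IV and V are encoded in mitochondrial DNA, so both genomes supply each of those complexes. Weaning replaces the fatty milk diet by solid food, and the intestinal epithelium is remodelled at that time.

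Many promoters of these genes are known to bind NRF1, ETS factors of the GABP (NRF2) family and YY1. RefSeq windows of 300 bases on GRCm38.p6 (250 bases before to 50 after the start) were found for 64 members, 69 windows in all. The letters GCATGCGC (NRF1 core, either strand) stood in 14.5% of the 69 windows, against 2.71% of the 32851 windows of all genes. CCGGAAG (ETS core, either strand) stood in 23.2% against 8.86%, and AAGATGG (YY1 core, either strand) in 14.5% against 6.34%. None of these letter strings contains another. A match is a description of the letters and was not tested for binding. The windows below belong to the member with the largest mean rise from day 14 to 24 among those called under both dams, and to the next 3 of that ranking that hold a core; only members with a single window entered that ranking. Capitals mark the cores, and each window is printed 5′ to 3′ on the gene's strand. Cox7a1 lies at chr7:30183921-30184220 (+) and holds none of the cores. Cox6b1 lies at chr7:30626065-30626364 (-) and holds an ETS core. Sdhb lies at chr4:140961021-140961320 (+) and holds an NRF1 and an ETS core. Uqcrc1 lies at chr9:108936398-108936697 (+) and holds the NRF1 core on both strands, overlapping.
Cox7a1: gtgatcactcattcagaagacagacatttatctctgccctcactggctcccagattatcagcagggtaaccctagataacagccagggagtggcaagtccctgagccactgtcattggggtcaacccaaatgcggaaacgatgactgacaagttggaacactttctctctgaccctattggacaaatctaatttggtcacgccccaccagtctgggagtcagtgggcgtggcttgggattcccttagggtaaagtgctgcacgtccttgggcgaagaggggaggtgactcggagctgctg
Cox6b1: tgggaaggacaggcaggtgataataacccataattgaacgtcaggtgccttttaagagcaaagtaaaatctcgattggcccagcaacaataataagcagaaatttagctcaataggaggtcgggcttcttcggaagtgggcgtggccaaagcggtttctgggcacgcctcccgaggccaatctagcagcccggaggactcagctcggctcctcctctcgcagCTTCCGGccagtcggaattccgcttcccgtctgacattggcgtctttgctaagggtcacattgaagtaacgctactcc
Sdhb: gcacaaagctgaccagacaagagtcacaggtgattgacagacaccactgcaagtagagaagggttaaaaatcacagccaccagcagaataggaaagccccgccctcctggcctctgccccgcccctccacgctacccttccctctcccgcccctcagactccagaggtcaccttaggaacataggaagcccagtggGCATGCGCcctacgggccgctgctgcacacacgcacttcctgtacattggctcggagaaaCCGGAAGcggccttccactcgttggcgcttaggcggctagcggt
Uqcrc1: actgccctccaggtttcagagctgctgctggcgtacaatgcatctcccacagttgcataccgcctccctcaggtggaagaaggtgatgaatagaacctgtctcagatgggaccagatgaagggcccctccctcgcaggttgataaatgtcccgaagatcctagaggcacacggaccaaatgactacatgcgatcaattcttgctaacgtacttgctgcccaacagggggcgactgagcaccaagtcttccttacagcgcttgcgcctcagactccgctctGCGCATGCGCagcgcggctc

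Levels below are rescaled TPM: the deposited TPM divided by a median-of-ratios size factor per library, from 0.477 to 1.83, so that most genes stand level between libraries. Unscaled TPM were dominated by few rows: Gm23935 alone took 40.2% to 61.9% of a library's TPM and the mitochondrial genes 13.7% to 34.6%. Recovered reads per library ran from 8477226 to 18305346. Epcam stood between 153 and 500.0 TPM, while Ptprc (CD45) reached at most 0.806 TPM. Of the lists of markers of other tissues, none of 7 fibroblast and smooth muscle, none of 5 endothelial and none of 7 B and plasma cell genes reached 1 TPM in 2 libraries, and 1 of 7 T cell, 3 of 6 myeloid and 2 of 6 erythroid genes did. Erythroid markers summed to 67.2 rescaled TPM in IgA-null day-24 replicate 2 and to at most 3.23 in the other 16 libraries. Statements on change come from limma on log2(rescaled TPM + 1) over 15066 genes in all 17 libraries, with Benjamini-Hochberg adjustment and a threshold of 0.05, and every log2 value is on that scale unless said otherwise.

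The members spanned a wide range of levels within each complex. In complex V the mean over all libraries ran from 1.81 rescaled TPM for Atp5s to 244 for Atp5a1, the catalytic-ring alpha subunit, and Atp5b, the beta subunit that makes ATP, stood at 149. In complex IV it ran from 1.37 for Cox6b2 to 174 for Cox8a, followed by Cox4i1 at 124. In complex I it ran from 2.12 for Ndufb2 to 112 for Ndufa6, an accessory subunit. In complex III the span was narrower, from 33.5 for the core subunit Uqcrc2 to 112 for the small subunit Uqcr11. In complex II it was from 22.2 for the membrane anchor Sdhc to 65.8 for the flavoprotein Sdha.

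The median level over the 77 members was lowest at day 14 and highest at day 24. In the B6 group at day 14 the library medians were 32.3, 31.0 and 30.0 rescaled TPM, and in the IgA-null group 30.2, 25.6 and 29.05. At day 24 they were 42.8 and 48.0 under B6 dams and 42.0, 42.6 and 38.1 under IgA-null dams. All 5 libraries of day 24 lay above all 6 of day 14. At day 42 the medians were 43.1, 36.6 and 37.4 under B6 dams and 36.5, 41.2 and 33.3 under IgA-null dams, overlapping day 24 under both dams. Every complex had its highest group mean at day 24, and that mean was highest under B6 dams. For complex III the mean of the library medians was 45.6 ± 3.53 (SD, n = 3) at day 14 and 71.1 ± 10.5 (n = 2) at day 24 under B6 dams, and 42.7 ± 5.31 (n = 3) and 60.9 ± 8.59 (n = 3) under IgA-null dams. In complex IV the medians of the ages overlapped under IgA-null dams, at 54.1 to 63.1 and 54.7 to 79.2. The summed rescaled TPM of its genes did not, at 739 to 888 at day 14 and 964 to 1173 at day 24. At day 14 the medians of complex II were 33.6 to 42.5 under B6 dams and 26.7 to 32.5 under IgA-null dams. Those of complex V were 36.8 to 43.7 and 30.4 to 36.4, and those of complex IV 46.1 to 54.1 and 54.1 to 63.1. A median rests on the middle genes of a complex, and the summed levels did not all separate. Sums of complex II at day 14 were 145 to 165 under B6 dams and 117 to 143 under IgA-null dams. Those of complex V overlapped, at 793 to 867 and 791 to 927, as did those of complex IV, at 720 to 779 and 739 to 888. These are whole-population measurements, so fewer cells of a type and less RNA per cell cannot be told apart.

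**Figure D1:**
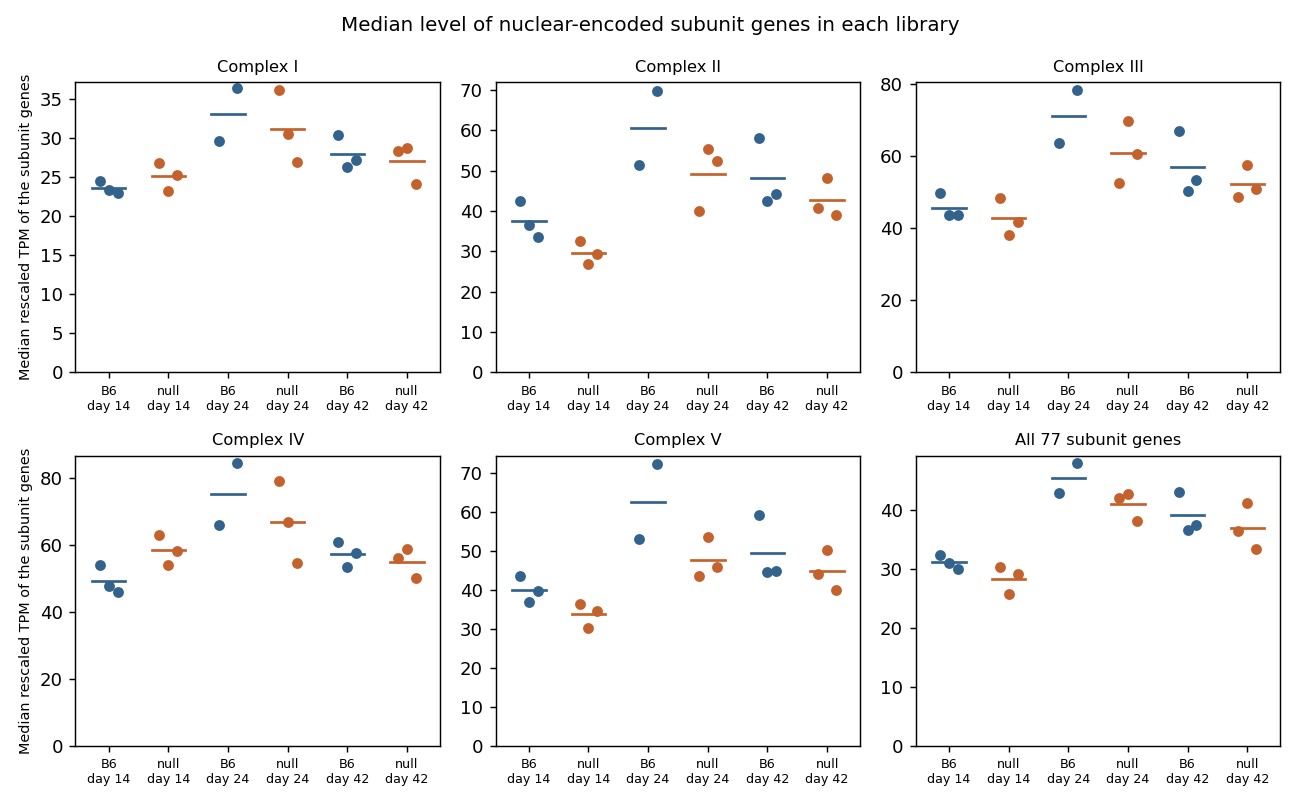
Median rescaled TPM (linear axis from 0) of the subunit genes of each complex and of all 77 genes in each library; points are libraries, short lines are group means, blue marks B6 dams and orange IgA-null dams. For all 77 genes the day-14 libraries lie between 25.6 and 32.3 and the day-24 libraries between 38.1 and 48.0; as deposited, without rescaling, the direction from day 14 to 24 is reversed under IgA-null dams.

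From day 14 to day 24 under B6 dams, 32 of the 77 members rose and none fell, and 74 of 77 had a positive log2 change. Of all 15066 genes, 7.93% rose and 5.91% fell. The median log2 change was 0.51 over the members and 0.01 over all genes. Under IgA-null dams, 25 members rose and none fell, against 8.35% and 8.28% of all genes, with a median of 0.38 against −0.02, and 71 of 77 changes were positive. The same 19 members rose under both dams, which is 59.4% of those under B6 dams and 76% of those under IgA-null dams. The matching overlap over all genes is not given, so these shares do not set the members apart. The comparisons under the 2 dams share no library. As deposited, the median of all genes lay at −0.29 (B6) and −1.02 (IgA-null), the members' medians at 0.07 and −1.03, and 0 members passed under B6 dams while 75 fell under IgA-null dams, so the direction under IgA-null dams depends on the scaling. Without a pseudocount, over the 2743 genes of at least 10 TPM on average and in relation to their median, which no scaling changes, the 68 members among them stood 0.38 (B6) and 0.29 (IgA-null) higher in the log2 ratio. Of these 68, 66 lay above the median gene under B6 dams and 57 under IgA-null dams. Without replicate 2 of the B6 day-24 group the B6 count was 2, and without replicate 2 or 3 of B6 day 14 it was 16 or 19. Without replicate 2 or 3 of IgA-null day 14, or replicate 2 of IgA-null day 24, the IgA-null count was 6, 10 or 9; the last of these libraries is the one with the erythroid markers, whose part was not tested.

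**Figure D2:**
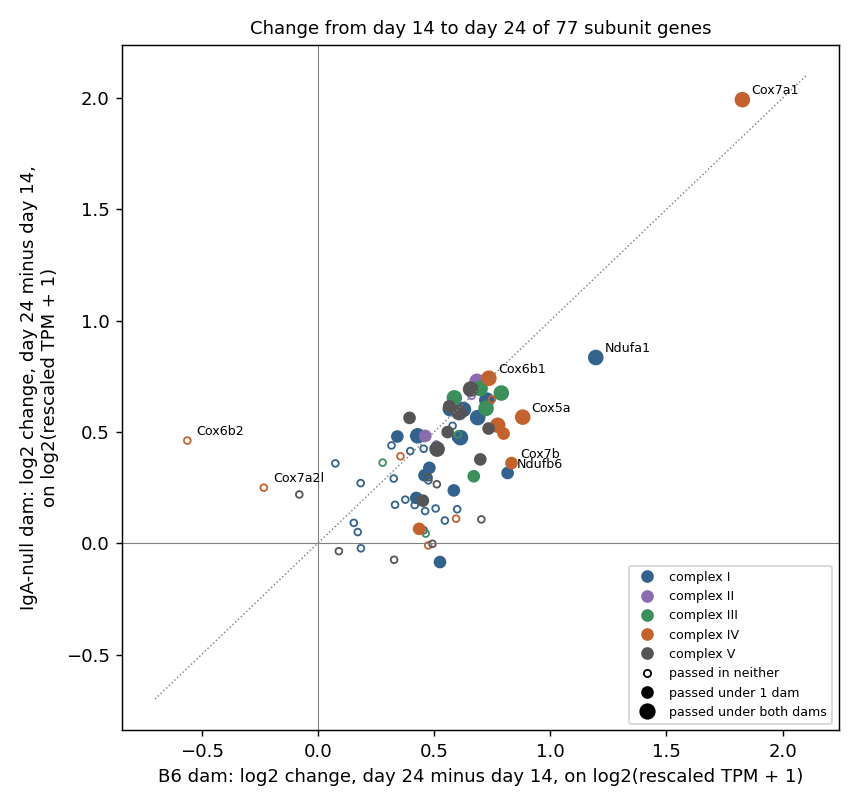
Change from day 14 to day 24 of each subunit gene on log2(rescaled TPM + 1), under B6 dams (horizontal) and IgA-null dams (vertical); colour gives the complex, filled and larger points passed the test under 1 or both dams, and the dotted line marks equal change. Cox7a1 stands apart at 1.83 and 1.99, and 19 genes passed under both dams; as deposited, 75 genes fell under IgA-null dams.

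Complex I made up 13 of the genes that rose under B6 dams and 9 under IgA-null dams, of 36. Ndufa1, a small membrane-arm subunit needed for assembly, stood at 29.4, 30.1 and 26.0 rescaled TPM at day 14 and at 50.002 and 88.2 at day 24 under B6 dams, a log2 change of 1.196 ± 0.257 (SE; limma adjusted p = 0.0079). Under IgA-null dams it was 38.1, 22.5 and 26.3 at day 14 and 43.9, 61.3 and 50.01 at day 24, a change of 0.83 ± 0.23 (limma adjusted p = 0.027). Under either dam each day-24 library lay above each day-14 library. Ndufb6, another membrane-arm subunit, went from 17.2, 16.7 and 18.8 to 27.5 and 36.4 under B6 dams, a change of 0.82 ± 0.16 (limma adjusted p = 0.0040). Ndufs1, which carries iron-sulfur clusters of the NADH-oxidising arm, rose under B6 dams by 0.46 ± 0.12 (limma adjusted p = 0.022), and Ndufv1, which binds FMN and NADH, rose under IgA-null dams by 0.48 ± 0.12 (limma adjusted p = 0.017). Without B6 day-24 replicate 2 the changes of Ndufa1 and Ndufb6 under B6 dams were 0.79 (limma adjusted p = 0.12) and 0.62 (limma adjusted p = 0.060). As deposited, Ndufa1 changed by −0.63 under IgA-null dams, the opposite direction, and its call there was lost without any of 4 of the 6 libraries of that comparison, with limma adjusted p up to 0.11.

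All 4 genes of complex II, which links the citric acid cycle to the chain, had positive log2 changes under both dams, from 0.46 to 0.69 (B6) and from 0.44 to 0.73 (IgA-null), although all 4 fell under IgA-null dams as deposited. Sdhb, the iron-sulfur subunit, passed under both. It stood at 29.8, 26.5 and 25.1 rescaled TPM at day 14 and 34.8 and 55.9 at day 24 under B6 dams. Under IgA-null dams it stood at 29.5, 26.5 and 29.05 and then at 47.4, 49.5 and 45.8. The IgA-null day-24 libraries were close together and far above day 14, with a log2 change of 0.73 ± 0.16 (limma adjusted p = 0.0095), whereas B6 day-24 replicate 1 lay nearer to day 14 (0.69 ± 0.18, limma adjusted p = 0.022). As deposited the IgA-null change of Sdhb was −0.73. Sdha passed under IgA-null dams (0.48 ± 0.15, limma adjusted p = 0.038).

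In complex III, 5 of 8 genes rose under B6 dams and 4 under IgA-null dams. Uqcrfs1, the Rieske iron-sulfur protein, stood at 51.6, 41.8 and 40.2 rescaled TPM at day 14 and 61.7 and 96.7 at day 24 under B6 dams, and at 48.8, 39.9 and 37.7 and then 61.5, 76.9 and 64.8 under IgA-null dams. The 2 ages did not overlap under either dam, and the log2 changes were 0.79 ± 0.23 (limma adjusted p = 0.034) and 0.67 ± 0.20 (limma adjusted p = 0.038). Uqcrc1, a core subunit, changed by 0.70 under each dam, with standard errors of 0.16 and 0.14. Uqcrh, the hinge subunit near cytochrome c1, and Uqcrb, a ubiquinone-binding subunit, passed under both dams as well. As deposited, every gene of complex III fell under IgA-null dams.

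In complex IV, 7 of 13 genes rose under B6 dams and 4 under IgA-null dams, and the median change was 0.74 and 0.46. Cox5a, a matrix-side subunit added early in assembly, stood at 19.0, 18.6 and 18.3 rescaled TPM at day 14 and 29.4 and 42.0 at day 24 under B6 dams, a change of 0.88 ± 0.16 (limma adjusted p = 0.0025). It stayed called in each of 5 fits that left out 1 library of the comparison, with limma adjusted p up to 0.041. Cox7b, a small membrane subunit, went from 90.6, 75.7 and 81.5 to 129 and 169 under B6 dams, 0.83 ± 0.23 (limma adjusted p = 0.026), and to 0.64 (limma adjusted p = 0.22) without B6 day-24 replicate 2. Cox6b1, which faces the intermembrane space, stood at 63.1, 54.1 and 58.1 at day 14 and 79.2, 113 and 106 at day 24 under IgA-null dams. Its change there of 0.74 ± 0.16 (limma adjusted p = 0.0079) was −0.74 as deposited.

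In complex V, 6 of 16 genes rose under each dam, Atp5b, Atp5e and Atp5f1 among both. Atp5b stood at 134, 119.7 and 132 rescaled TPM at day 14 and 176 and 218 at day 24 under B6 dams (0.61 ± 0.16, limma adjusted p = 0.023). Under IgA-null dams it stood at 112, 96.2 and 101 and then at 129, 175 and 164 (0.59 ± 0.14, limma adjusted p = 0.016). The ages did not overlap under either dam. Atp5a1, the other catalytic-ring subunit, had no call in any comparison and stood between 186 and 381 over the 17 libraries. As deposited, all 16 genes of complex V fell under IgA-null dams.

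The largest rise belonged to Cox7a1, the complex IV isoform best known from heart, skeletal muscle and brown fat. Under B6 dams it stood at 5.89, 5.25 and 5.30 rescaled TPM at day 14, 11.3 and 42.0 at day 24, and 28.7, 10.8 and 15.4 at day 42. Under IgA-null dams it stood at 7.94, 7.09 and 6.81, then 55.7, 24.34 and 23.8, and then 10.99, 10.6 and 6.64. Day 24 lay above day 14 in every library under both dams, the 2 B6 libraries of day 24 lay far apart, and the day-42 libraries under IgA-null dams lay below those of day 24. The change from day 14 to 24 was 1.83 ± 0.49 (limma adjusted p = 0.024) under B6 dams and 1.99 ± 0.43 (limma adjusted p = 0.0087) under IgA-null dams; as deposited it was 1.40 and 0.60, without a call. Without B6 day-24 replicate 2 the B6 change was 0.93 (limma adjusted p = 0.32), and its call was also lost without any B6 day-14 library. Cox7a2, the isoform of most tissues, stood at 35.4 on average over all libraries, so the ratio of Cox7a1 to Cox7a2, which no scaling changes, was 0.192 ± 0.028 (SD, n = 3) at B6 day 14 and 0.274 and 0.720 at B6 day 24. Under IgA-null dams it was 0.348 ± 0.055 (n = 3) at day 14, between 0.576 and 2.43 at day 24 and 0.239 ± 0.064 (n = 3) at day 42. The sum of 5 marker genes of brown fat and muscle was also higher at day 24 than at day 14, without overlap under either dam. Under B6 dams it was 0.312 to 0.682 rescaled TPM and then 0.761 to 4.54. Under IgA-null dams it was 0.0922 to 0.6997 and then 0.967 to 1.60, although the highest Cox7a1, 55.7, stood in that day-24 group. At day 42 the sum was 0.631 to 1.57 under B6 dams. Under IgA-null dams it was then 0.884 to 1.10 and overlapped day 24, whereas Cox7a1 did not. Of the 5, Acta1, skeletal muscle actin, alone passed the filter, and its 4.54 stood in B6 day-24 replicate 2, the library with the higher Cox7a1 of that group. Ucp1, Cidea, Ckm and Myh2 were each at 0 in some libraries and reached at most 0.171, 0.208, 0.0473 and 0.0143. The part of such cells in the rise of Cox7a1 was not tested.

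Other tissue-restricted isoforms were near or below detection. Cox4i2, the isoform of lung, reached 0.339 TPM at most, the muscle isoforms Cox6a2 and Cox8b reached 0.202 and 0.422, Ndufa4l2 reached 0.380, and Cox7b2 and Cox8c were listed at 0 in every library. Cox6b2, an isoform best known from testis, was the 1 member called lower from day 14 to 42, and only under B6 dams. It stood at 2.19, 1.80 and 2.51 rescaled TPM at B6 day 14 and at 0.561, 0.618 and 0.970 at B6 day 42. The groups did not overlap, and the log2 change was −0.89 ± 0.21 (limma adjusted p = 0.012), −1.03 as deposited. Under IgA-null dams the change was −0.41 ± 0.21 (limma adjusted p = 0.20), and the groups overlapped. These levels lie near the pseudocount of 1, which shrinks the log2 changes. Of the 3 genes for the membrane-ring c subunit, whose mature proteins are identical, Atp5g3 gave 76.6% to 87.3% of their summed TPM, Atp5g1 7.13% to 14.36% and Atp5g2 4.95% to 10.6% over the 17 libraries.

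Between day 24 and day 42 the members' median log2 change was −0.30 under B6 dams and −0.19 under IgA-null dams, against −0.03 and 0.01 for all genes. Under B6 dams no member passed, 13 (16.9%) had an unadjusted p under 0.05, as did 7.03% of all genes, and 0.0133% of all genes rose and 0.0133% fell; without B6 day-24 replicate 1, 3 members fell. The 3 smallest p belonged to Ndufc2 (−0.49 ± 0.15), Atp5g1 and Ndufb8, with limma adjusted p from 0.55 to 0.59. Under IgA-null dams 3 members fell and none rose, where 1.14% of all genes fell and 1.44% rose. Uqcrq, a small complex III subunit, stood at 133, 81.8 and 71.7 rescaled TPM at day 24 and 46.6, 50.1 and 47.8 at day 42 (−0.92 ± 0.19, limma adjusted p = 0.027). Ndufv3, an accessory subunit of the NADH-oxidising arm, stood at 42.2, 27.2 and 27.3 and then 19.8, 20.1 and 16.8 (−0.71 ± 0.15, limma adjusted p = 0.031; 0.12 as deposited). Cox6b2 stood at 1.85, 1.65 and 2.85 and then 0.714, 0.427 and 0.958 (−0.87 ± 0.21, limma adjusted p = 0.046). No day-42 library reached day 24 for these 3 genes, which were picked by the test on the same libraries, so this adds no support. All 3 calls were lost without IgA-null day-24 replicate 1 or without any one of the IgA-null day-42 libraries, and 11 members fell when either B6 day-24 library was left out, 5 when B6 day-42 replicate 1 was. As deposited, where all genes had a median of 0.53, 46 members rose instead.

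From day 14 to day 42, 7 members rose and Cox6b2 fell under B6 dams (7.04% and 6.6% of all genes), and 18 rose and none fell under IgA-null dams (8.4% and 8.09%). These comparisons share their day-14 libraries with those from day 14 to 24. The members' median was 0.23 and 0.14, against −0.01 and −0.02 for all genes. Atp5k, the e subunit of ATP synthase, Cox6b1, Ndufa12 and Uqcrh rose under both dams. The count of 7 that rose under B6 dams was near the share of all genes. The matching overlap between dams over all genes is not given, so this overlap does not set the members apart. Ndufa12, an accessory subunit of complex I, stood at 27.0, 25.02 and 30.0 rescaled TPM at day 14 and 41.3, 36.6 and 38.7 at day 42 under B6 dams (0.50 ± 0.10, limma adjusted p = 0.0051). Under IgA-null dams it stood at 23.8, 19.5 and 22.7 and then 36.5, 35.5 and 32.6 (0.65 ± 0.10, limma adjusted p = 0.0010). Neither pair of groups overlapped. Under IgA-null dams the largest changes were those of Ndufa4, from 13.3, 9.14 and 8.61 to 21.6, 27.2 and 18.5 (1.05 ± 0.20, limma adjusted p = 0.0036), and of Cox6b1, from 63.1, 54.1 and 58.1 to 119, 121 and 101 (0.94 ± 0.16, limma adjusted p = 0.0015). Cox7a2, Sdhd (a membrane anchor of complex II) and Atp5k followed at 0.87, 0.81 and 0.81. The B6 count lay between 2 (without B6 day-42 replicate 1) and 13 (without either B6 day-24 library), and was 3 or 4 without any B6 day-14 library. The IgA-null count was 8 or 11 without replicate 2 or 3 of IgA-null day 14 and 11 or 7 without replicate 1 or 2 of IgA-null day 42. As deposited, Cox6b2 alone passed under B6 dams and 23 members fell under IgA-null dams.

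**Figure D3:**
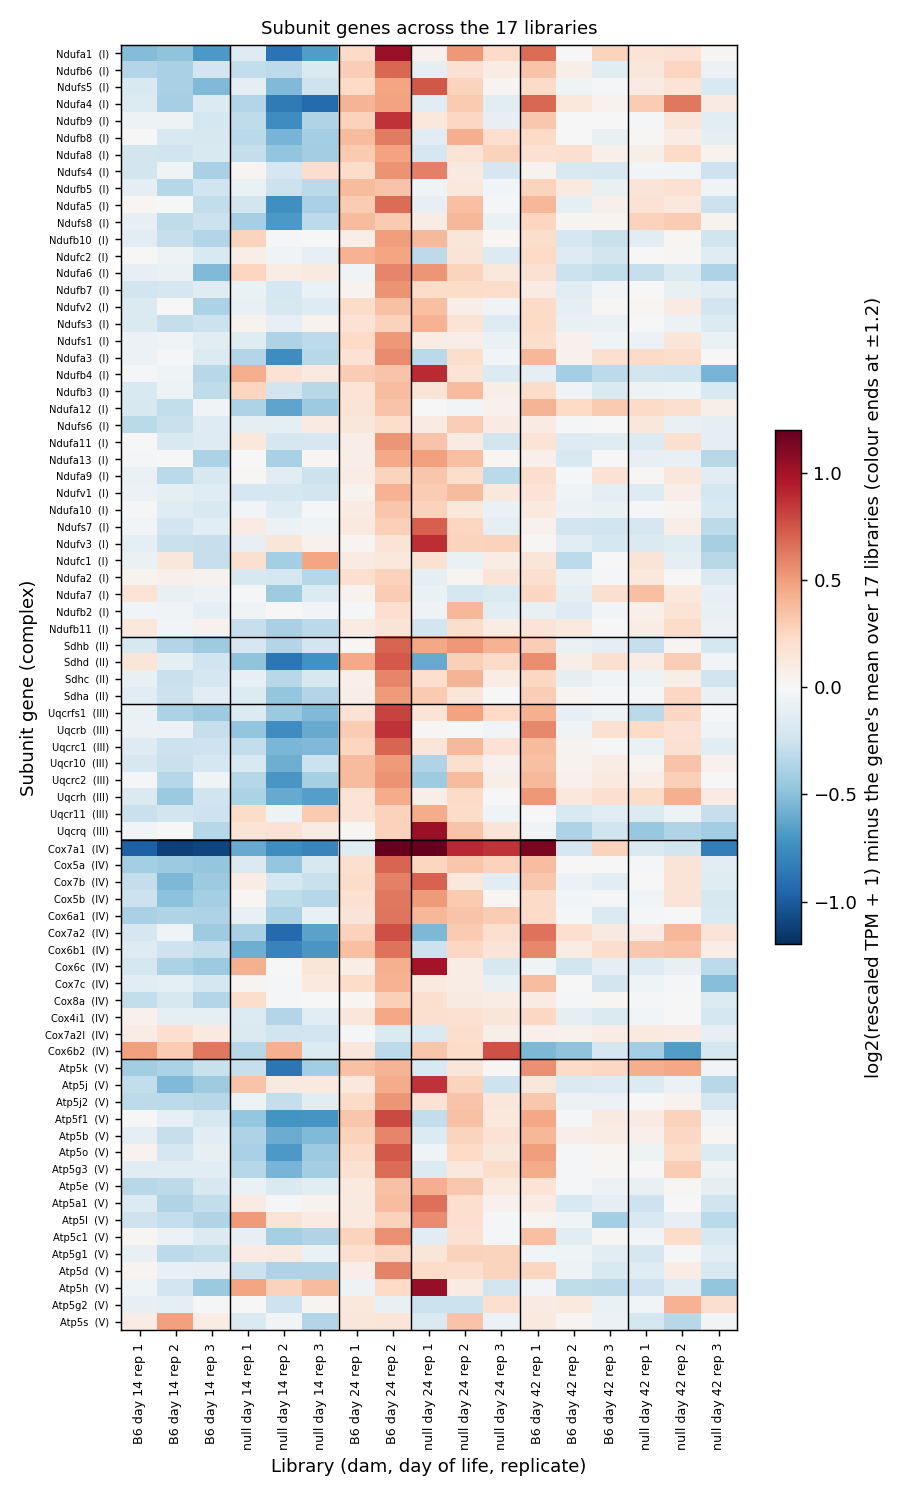
Each row is a subunit gene with its complex (1 gene is not drawn), each column a library; colour gives log2(rescaled TPM + 1) minus the gene's mean over the 17 libraries, red above and blue below. B6 day-24 replicate 2 holds the highest value of 40 genes and IgA-null day-14 replicate 2 the lowest of 32, and in IgA-null day-24 replicate 1 some genes stand high while others of the same complex stand low; as deposited, the step from day 14 to 24 is reversed under IgA-null dams.

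At day 14 no member differed between the dams at the threshold, while 1.79% of all genes were higher and 1.14% lower under IgA-null dams; 22 members (28.6%) had an unadjusted p under 0.05, as did 19.3% of all genes, and the members' median log2 difference (IgA-null minus B6) was 0.01 against −0.01 for all genes. The smallest p belonged to Atp5l, the g subunit of ATP synthase, Cox7a2l and Ndufb11, a membrane-arm subunit of complex I. Atp5l stood at 4.54, 4.41 and 4.13 rescaled TPM under B6 dams and 8.35, 6.35 and 6.06 under IgA-null dams (0.55 ± 0.16, limma adjusted p = 0.069). Cox7a2l stood at 40.9, 44.2 and 41.6 and at 33.9, 32.3 and 32.6 (−0.35 ± 0.11, limma adjusted p = 0.086). Ndufb11 stood at 53.9, 47.9 and 51.0 and at 40.3, 37.4 and 39.0 (−0.38 ± 0.12, limma adjusted p = 0.092). None of these 3 overlapped between the dams, but they were picked by their p, so the lack of overlap adds no support. As deposited, where all genes had a median of 0.33 and not −0.01, Cox7a2l and Ndufb11 were at 0.10 and 0.070, so their direction turned, and 6 members were higher (Atp5l, Atp5g1, Ndufa6, Atp5j, Ndufb10 and Cox8a). Without IgA-null day-24 replicate 1, which enters the fit through the shared estimate of the spread, 7 members passed, 4 higher and 3 lower. In 21 members all 3 IgA-null libraries lay above all 3 B6 libraries and in 23 they lay below, in rescaled TPM; among all genes tested this held for 16% and 15.1%.

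**Figure D4:**
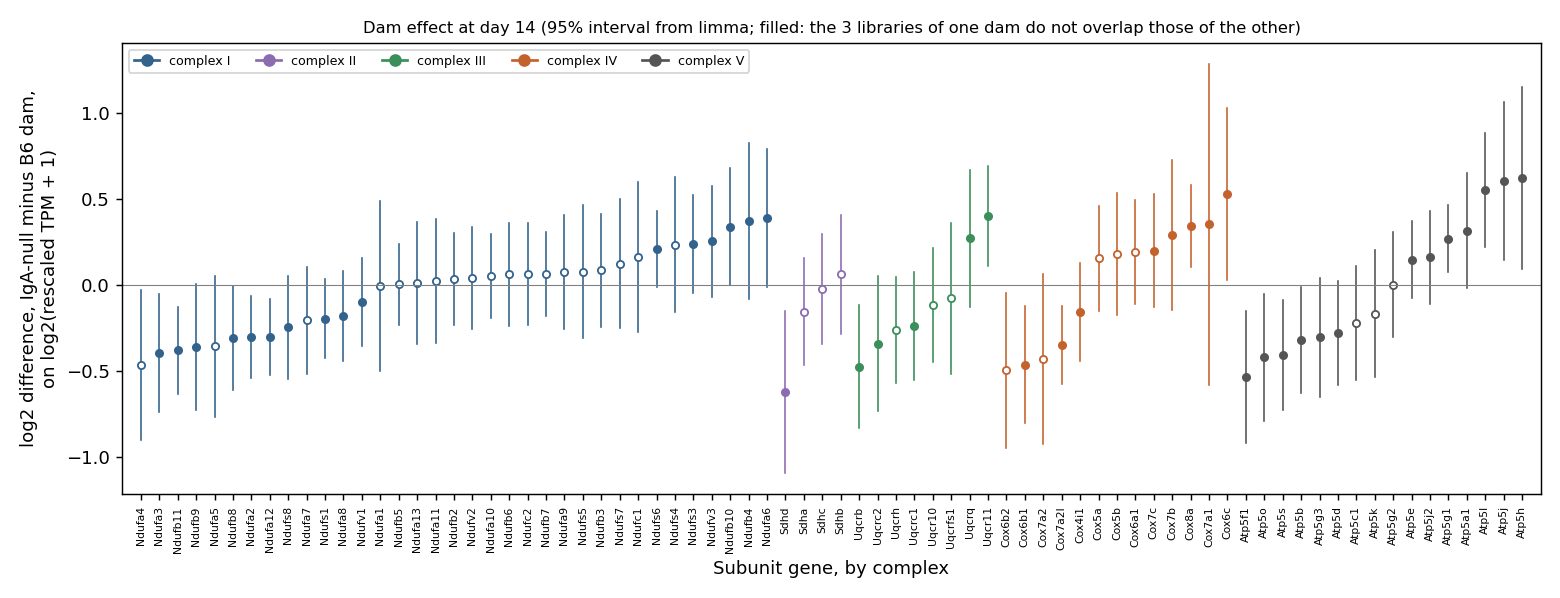
Difference between dams at day 14 (IgA-null minus B6) on log2(rescaled TPM + 1) for each subunit gene (1 is not drawn), ordered within its complex, with the 95% interval from limma; filled points have no overlap between the 3 libraries of each dam. Each complex holds genes on both sides of 0, from Sdhd at −0.62 to Atp5h at 0.62, and none passed the test; as deposited, genes such as Cox7a2l and Ndufb11 move to the other side of 0.

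Subunits of the same complex lay on opposite sides, and ratios within a library, which no scaling changes, give the same values under either scaling. With 1 value per gene, coverage along transcripts and isoforms was not analysed here, so a ratio of TPM may not equal a ratio of transcripts. The pairs that follow were chosen after their values were seen and carry no test. Atp5h (d), Atp5f1 (b), Atp5j (F6) and Atp5o (OSCP) form the peripheral stalk of ATP synthase. The ratio of Atp5h to Atp5f1 was between 2.89 and 3.32 at B6 day 14 and between 6.75 and 7.55 at IgA-null day 14. It was between 2.31 and 2.80 in all B6 libraries of days 24 and 42 and between 2.54 and 2.69 at IgA-null day 42. At IgA-null day 24 it spread from 2.69 to 8.86. The ratio of Atp5j to Atp5o was 0.933 ± 0.005 (SD, n = 3) at B6 day 14 and 1.94 ± 0.17 (n = 3) at IgA-null day 14, and that of Cox6c to Cox6b1 was 0.609 ± 0.021 and 1.23 ± 0.097. In complex III, Uqcr11 over Uqcrb was 2.43 ± 0.21 and 4.52 ± 0.44, and in complex II, Sdhb over Sdhd was 0.568 ± 0.030 and 0.929 ± 0.085. In each of these 5 ratios the IgA-null libraries of day 14 lay above every B6 library and every day-42 library.

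At day 24 replicate 1 of the IgA-null group held the highest value of its group in each of these 5 ratios. Across the 77 members, the log2 difference of that library from the mean of replicates 2 and 3 had a Pearson r of 0.78 with the dam difference at day 14, against 0.29 across all 15066 genes; the differences share no library, genes are not independent of each other, and no test was made. Of the 21 members that stood higher at day 14 in every IgA-null library, 18 were higher in that replicate than in the mean of the others, with a median log2 difference of 0.47. Of the 23 that stood lower, 5 were higher, with a median of −0.31. Over all 77 members 37 were higher in that replicate, and over all 15066 genes 7161 were. The same split of all genes by their order at day 14 is not given. Several measures moved with the day-14 dam comparison, and of 16 marker lists 3 were higher and 4 lower under IgA-null dams without overlap of their sums. Goblet cell markers (8 of 8 past the filter) summed to 426 to 690.3 rescaled TPM under B6 dams and 1485 to 2333 under IgA-null dams, and enteroendocrine markers (8 of 8) to 144 to 179 and 766 to 938, and tuft cell markers (5 of 7) were higher as well, at 2.33 to 2.96 and 9.50 to 11.2. Neonatal enterocyte markers (11 of 12) were lower, at 417 to 1602 and 197 to 324, as were stem cell markers (6 of 6), at 504 to 792 and 419 to 494. T cell markers (1 of 7) stood at 1.33 to 2.73 and 0.299 to 0.601, and markers of enteric neurons and glia (2 of 6) at 1.67 to 2.80 and 1.00 to 1.49. Rn7sk, a small nuclear RNA, stood at 4635 to 6602 and at 18429 to 19868, and recovered reads were 11310851 to 13636442 and 8477226 to 11337164. The part of these in the ratios was not tested.

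**Figure D5:**
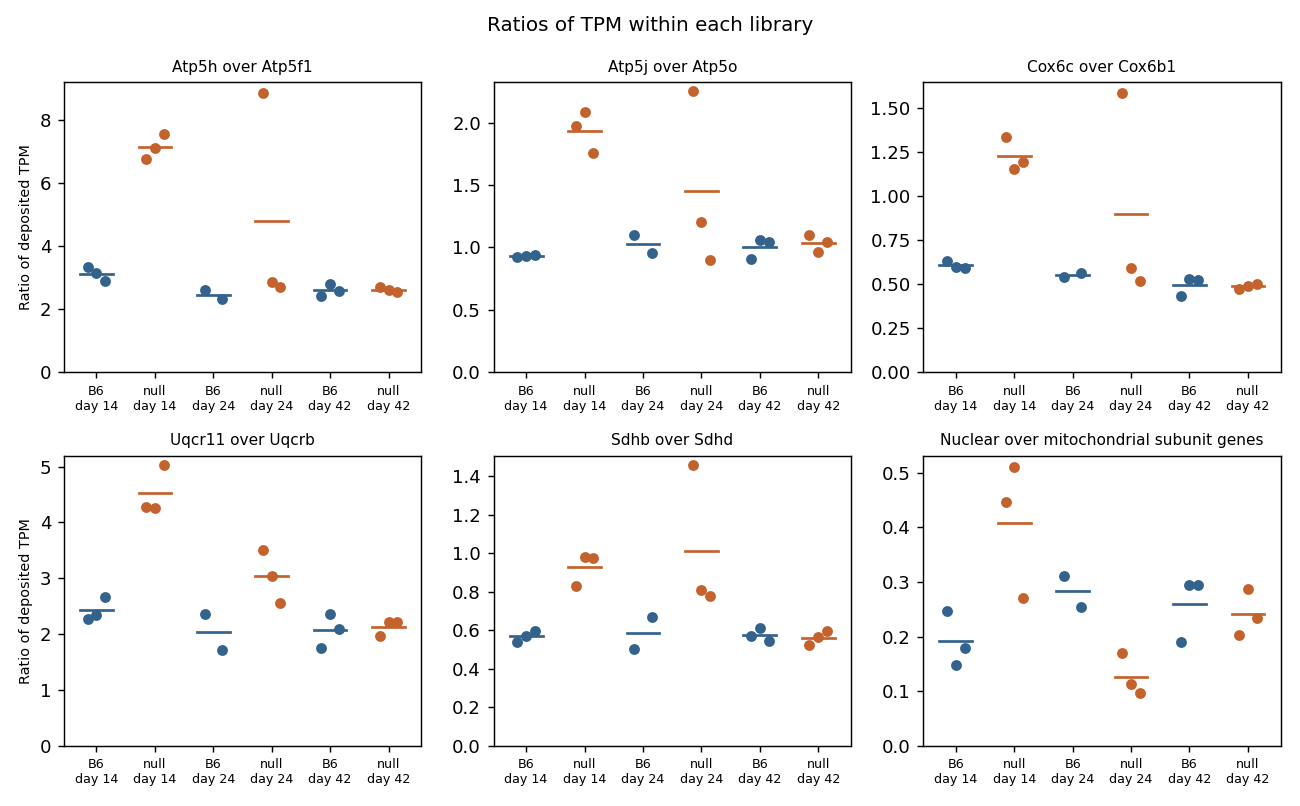
Ratios of deposited TPM within each library (linear axes from 0; points are libraries, short lines group means, blue B6 and orange IgA-null dams) for 5 pairs of subunit genes of the same complex and for the summed nuclear subunit genes over the summed mitochondrially encoded ones. In the 5 pairs, the 3 IgA-null libraries of day 14 and at least 1 of IgA-null day 24 lie above every B6 library, as for Atp5h over Atp5f1 with 6.75 to 7.55 against 2.89 to 3.32 at day 14.

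At day 24 and day 42 no member differed between the dams, and 0% of all genes rose and 0% fell at either age by the same test. At day 24, 17 members (22.1%) had an unadjusted p under 0.05, as did 10.1% of all genes, and 59 of 77 were lower under IgA-null dams, with a median of −0.13 against −0.03 for all genes (−0.70 and −0.38 as deposited). Ndufc2, a membrane-arm subunit, had the smallest p: it stood at 43.4 and 45.3 rescaled TPM under B6 dams and 25.9, 36.2 and 28.9 under IgA-null dams (−0.55 ± 0.15, limma adjusted p = 0.28). Uqcrb (−0.59 ± 0.19) and Ndufs1 (−0.35 ± 0.12) followed, and for all 3 genes the dams did not overlap. These 3 were picked by their p, so the lack of overlap adds no support. At day 42, 0 members had an unadjusted p under 0.05, against 1.61% of all genes, and the largest difference was that of Cox7a1 (−0.81 ± 0.43, limma adjusted p = 1). The test that the dam effect was the same at the 3 ages passed for 0 members and for 0.139% of all genes, with 5 members (6.49%) and 10.2% of all genes at an unadjusted p under 0.05; the smallest p belonged to Cox6b2, Ndufc2 and Cox7a2l.

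The chain's 13 mitochondrially encoded subunit genes, which are transcribed in the organelle, had a median log2 difference between dams of −0.97 at day 14 and 1.03 at day 24 (−0.53 and 0.46 as deposited), with 0 called at either age. From day 14 to 24, 10 of 13 rose under IgA-null dams, with a median of 2.04, and none under B6 dams, with a median of 0.02; as deposited, 6 rose and none, with medians of 0.71 and −0.45. mt-Co1, the catalytic subunit of complex IV, stood at 2234, 1586 and 3201 rescaled TPM at IgA-null day 14 and 7362, 10555 and 10097 at day 24 (2.04 ± 0.34, limma adjusted p = 0.0019). Under B6 dams it stood at 3517, 5668 and 4251 and then 3223 and 5988. Within a library, summed TPM of the 77 nuclear genes over that of the 13 mitochondrial ones was 0.191 ± 0.050 (SD, n = 3) at B6 day 14 and 0.408 ± 0.124 (n = 3) at IgA-null day 14, with no overlap. It was 0.254 and 0.311 at B6 day 24 and 0.127 ± 0.038 (n = 3) at IgA-null day 24, the opposite order. At day 42 it was 0.259 ± 0.061 and 0.242 ± 0.042 (n = 3 each). Several mitochondrial genes, such as mt-Co2 and mt-Co3, stood far below mt-Co1. Mitochondrial genes share sequence with nuclear copies, and whether reads were lost or split between them was not tested.

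Genes next to the respiratory chain were read from fixed lists, chosen with earlier results of these data known. The counts stand against 7.93% of all genes that rose and 5.91% that fell under B6 dams, and 8.35% and 8.28% under IgA-null dams. From day 14 to 24, 5 of 16 citric acid cycle enzymes rose under B6 dams and 6 under IgA-null dams, and none fell. Citrate synthase (Cs) rose by 1.27 ± 0.28 (limma adjusted p = 0.0091) and 1.32 ± 0.25 (limma adjusted p = 0.0042), and malate dehydrogenase (Mdh2) by 1.16 under each dam. Of 15 glycolysis genes, 8 rose and 2 fell under B6 dams and 10 rose and 1 fell under IgA-null dams, led by hexokinase 2 (Hk2, 2.57 ± 0.18 and 1.56 ± 0.16). Of 8 measured subunits and carriers outside the symbol rule, cytochrome c (Cycs, 1.36 ± 0.25 and 1.08 ± 0.22) and cytochrome c1 (Cyc1, 0.86 ± 0.15 and 0.59 ± 0.13) rose under both dams. Of 7 adenine nucleotide and proton carriers, 2 rose under each dam, the ATP/ADP carrier Slc25a5 under both (1.25 ± 0.24 and 0.91 ± 0.22).

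Assembly factors help subunits and cofactors into the complexes and are not part of the finished enzymes. Of 44 assembly factors, 4 rose and none fell under B6 dams, and 2 rose and 4 fell under IgA-null dams, with medians of 0.21 and 0.05, which is near the shares of all genes. Timmdc1, which helps to build complex I, rose under both dams (0.57 ± 0.13 and 0.47 ± 0.11). Of 11 ubiquinone synthesis genes, Pdss1 rose and Coq8a fell under B6 dams and none passed under IgA-null dams. Of 14 regulators of mitochondrial biogenesis, Polg fell under B6 dams, and Ppargc1a (1.38 ± 0.37) and Esrra (0.62 ± 0.20) rose under IgA-null dams. As deposited, where the median of all genes was −1.02 under IgA-null dams, no gene of these 7 lists rose under IgA-null dams. Marker lists moved with age as well, 4 of 16 higher and 3 lower at day 24 without overlap under B6 dams, and 6 higher and 2 lower under IgA-null dams. Under B6 dams goblet markers stood at 426 to 690.3 rescaled TPM at day 14 and 1331 to 1794 at day 24, enteroendocrine markers at 144 to 179 and 686 to 842, and tuft markers at 2.33 to 2.96 and 17.4 to 17.8. Paneth cell markers (7 of 7 past the filter) went the other way, at 1065 to 1732 and 600.4 to 999. Under IgA-null dams Paneth markers stood at 1702 to 2538 and 2751 to 6799.6 and enteroendocrine markers at 766 to 938 and 296 to 390, each opposite to B6 dams. Cycling-cell markers (7 of 7) were lower at day 24 under both dams, at 113 to 139.6 and 74.2 to 109 under B6 dams and 117 to 127 and 66.8 to 101 under IgA-null dams. Their part in the members' rise was not tested.

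Over the 17 libraries the members varied together to different degrees. The Pearson r of a member with the mean of the other members had a median of 0.76, and 64 of 77 members were above 0.5; the libraries share scaling and groups, so this is a description. Sdhc, Atp5j2, Uqcrc1 and Cox5a were most like the others, with r of about 0.96 on log2(rescaled TPM + 1). Cox6b2 was the 1 member below 0, at −0.30, and Atp5g2, Cox7a2l, Atp5s and Atp5h came next, at 0.02, 0.04, 0.14 and 0.24. The highest library was 2.17 times the lowest for the median member, and 10.6 times for Cox7a1.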

How the data were processed

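Sorted cells were frozen until all groups had been collected; a SMART-seq v4 kit was then used for RNA and a Nextera XT kit for libraries, per the labels' protocols. The submitters' processing notes name mm10, Bowtie2, Subread and DESeq2 without versions or settings. The values are TPM, deposited by the authors in 1 table of 17 columns, each summing to 1000000 with no scaling between libraries. Multiplying TPM by GENCODE M21 exon length gave whole reads, within 0.01 reads or a relative 1e-04, for 93.6% of values, and from these the depth; 63 members were whole in every library. Such reads carry no molecular identifiers.

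Size factors (16088 genes above 0 in every library), limma 3.58.1 in R 4.3.3 (trend, 1 fit of 6 group means, pseudocount 1, genes of 1 TPM or more in 2 libraries) and Python 3.11.15 gave the results; the moderated F test compared dam effects between ages. The procedure was tested on simulated data. Named members are the 2 highest of each complex, called members (the 5 largest rises and falls where over 10 passed), the 3 smallest p where none passed, isoform pairs and defining subunits; others were chosen after their values were seen. Values of 1 complex I member that the rule names are not reported here; it stays in all fits and counts. The members and lists were chosen with earlier results of these data known. Alternatives were other scalings, pseudocount, filter, a replicate block and each library left out.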

Additional observations from a re-analysis of the deposited data

How the results depend on the processing

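The counts of members called rest on the scaling. With TPM as deposited, the counts were 6 at day 14 between dams, 0 from day 14 to 24 under B6 dams, 75 (all lower) under IgA-null dams, 46 (all higher) from day 24 to 42 under IgA-null dams, 1 (lower) and 23 (all lower) from day 14 to 42 under B6 and IgA-null dams, and 2 for the dam effect between ages. Members named for a comparison by a call, a largest change or a smallest p were checked in that comparison. Of these, Cox7a2l (0.10) and Ndufb11 (0.070) turned direction at day 14. Under IgA-null dams Ndufa1 (−0.63), Cox6b1 (−0.74), Sdhb (−0.73) and Ndufa4 (−0.66) turned from day 14 to 24 and Ndufv3 (0.12) from day 24 to 42. Members named for other reasons turned as well from day 14 to 24 under IgA-null dams, such as Atp5b (−0.90), Uqcrc1 (−0.76) and Sdha (−0.99). With TPM recomputed without mitochondrial genes and the 50 highest genes, the counts were 1 at day 14, 12 and 15 from day 14 to 24 (B6, IgA-null), 6 from day 24 to 42 (IgA-null) and 28 from day 14 to 42 (IgA-null). Without a filter 1 member was called from day 24 to 42 under IgA-null dams. A pseudocount of 0.1 kept each count within 1.5 times. The shares of all genes called are not given for these settings, the replicate block or the fits with a library left out. Such counts therefore do not set the members apart from other genes.

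Leaving out 1 library at a time gave 0 to 7 at day 14, 2 to 46 and 6 to 34 from day 14 to 24 (B6, IgA-null), 0 to 3 and 0 to 11 from day 24 to 42, and 2 to 13 and 7 to 23 from day 14 to 42; a group of 1 library was assumed to vary like the others. With the replicate block the counts were 1 at day 14 and 19 from day 14 to 24 under B6 dams. Of 24 same-numbered pairs 5 correlated above 0.1 (range −0.644 to 0.262), and the labels state no pairing. Groups of 2 or 3 libraries cannot show whether same-numbered samples share a litter or a batch. Limma-voom on recovered reads of 63 members, added after seeing the data, called 35 and 21 from day 14 to 24, where TPM called 28 and 21. Of all 13431 genes tested by limma-voom, 2100 and 1682 were called. Depth limits low members such as Cox6b2 and Atp5s, and the causes were not tested.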
